A study of Arabidopsis thaliana with 12 samples.

Results

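The 150 probes described here read transcripts that were lower on every array of Arabidopsis thaliana plants under strong blue light than on every array of plants under weak white light, once each array's intensities were turned into ranks. They were taken from 3439 numbered probes in all. Both groups were wild-type plants of ecotype Landsberg, a commonly used natural strain. One group was kept under white light at 20 µE for 48 hours, and the other was under blue light at 200 µE for its last 48 hours (µE is the labels' unit of light intensity). Each group held 6 arrays of total RNA, numbered 1 to 6. Colour and intensity changed together, so their shares in any difference cannot be told apart. The labels give neither organ nor age, name no array platform, and do not say whether the 6 arrays of a group came from separate plants, so spreads and p-values measure differences between arrays that may in part be technical.

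The members were chosen from the measured values. On each array a probe's rank ran up to 1 for the brightest. A probe could be selected if it was above 0 on all 12 arrays and was not among the 100 brightest by mean rank, which left 2278 probes. The gap is the lowest rank among the white-light arrays minus the highest rank among the blue-light arrays, and the 150 probes with the largest gap are the members. Every difference between the lights given below for a member was part of this choice, and is a description without a test.

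Plants read blue light with cryptochromes and phototropins, and red and far-red light with phytochromes. These photoreceptors set the transcription of many nuclear genes, including genes of chloroplast proteins. Strong light also drives the photosynthetic electron chain beyond what carbon fixation can use, and leaves acclimate by shifting light harvesting, photoprotection and the redox balance of the chloroplast. In white light of low intensity, light capture is the limiting step.

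The members' genes are known only in part. The platform annotation gives 1 gene for 27 members, several genes for 43 and none for 80, and only probes with 1 gene are named by gene here. Probes with 1 gene made up 18% of the members and 19.3% of the 2278 probes that could be selected, and probes with several genes made up 28.7% and 26.4%. The annotation therefore covered the members about as well as the other probes. None of the genes named for the 27 single-gene members was annotated on another probe.

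Members lay in the upper part of the array under white light and below its middle under blue light. Their median rank was 0.776 ± 0.0259 (SD, n = 6 arrays) with white light, and with blue light it was 0.428 ± 0.0135 (SD, n = 6). It ran from 0.747 to 0.811 on the white-light arrays and 0.408 to 0.446 on the blue-light arrays, where the median of all probes that could be selected lay near 0.61 on each array (0.607 on white-light array 2 and 0.617 on blue-light array 5). The gap was 0.413 for the first member, 0.126 for the median member and 0.0648 for the last. At least 0.1 was reached by 98 members, at least 0.2 by 35 and at least 0.3 by 8. A gap above 0 in this direction was found for 310 of 2278 probes (13.6%), and in the opposite direction for 308.

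**Figure D1:**
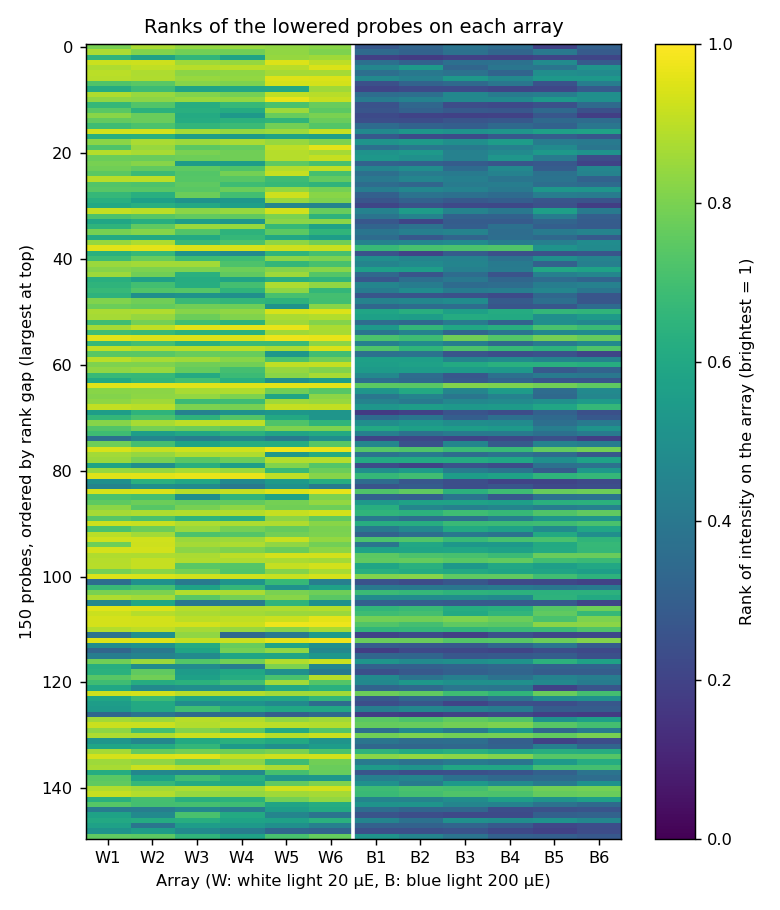
Rank of each of the 150 lowered probes (rows, ordered by gap) on the 6 white-light (W) and 6 blue-light (B) arrays (columns). The colour scale runs from 0 to 1 (brightest), and every row has higher ranks (towards yellow) on the white-light side, as the rule of selection requires.

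Members covered a wide range of levels under white light. Of the 150, 61 had a mean white-light rank above 0.8, 64 lay between 0.6 and 0.8, and 25 lay at or below 0.6. A white-light rank above 0.8 was held by 40.7% of the members and 19.7% of the probes that could be selected. Under blue light 42% of the members had a mean rank below 0.4, against 21.3% of the probes that could be selected. These ranks are the values that chose the members, and nothing is read from the differences. The lowest mean white-light rank of a member was 0.347.

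Deposited intensities run from 0 to 100, and the members lay near the bottom of this scale, as most probes did. Array medians averaged 0.379 for the members under white light and 0.145 under blue light. For the probes that could be selected they averaged 0.222 and 0.304. A member's mean intensity in white light was 0.0993 to 1.66, with a median of 0.387. In blue light it was 0.00984 to 0.691, with a median of 0.144. All 150 members had a lower mean deposited intensity under blue light. White-light arrays 5 and 6 were dim as a whole, with summed intensities of 1044 each, against 1988 to 2917 on the other white-light arrays and 2800 to 3337 on the blue-light arrays. On the deposited scale without any scaling, the groups did not overlap for 62 of the 150 members, where 4.48% of the probes that could be selected showed the same. Without white-light arrays 5 and 6 this held for 148 members, beside 18.9% of the probes that could be selected. The median member lay at 0.234 and 0.216 on white-light arrays 5 and 6, and at 0.416 to 0.500 on the other white-light arrays. On the 6 blue-light arrays it lay at 0.123 to 0.172, below all white-light arrays.

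**Figure D2:**
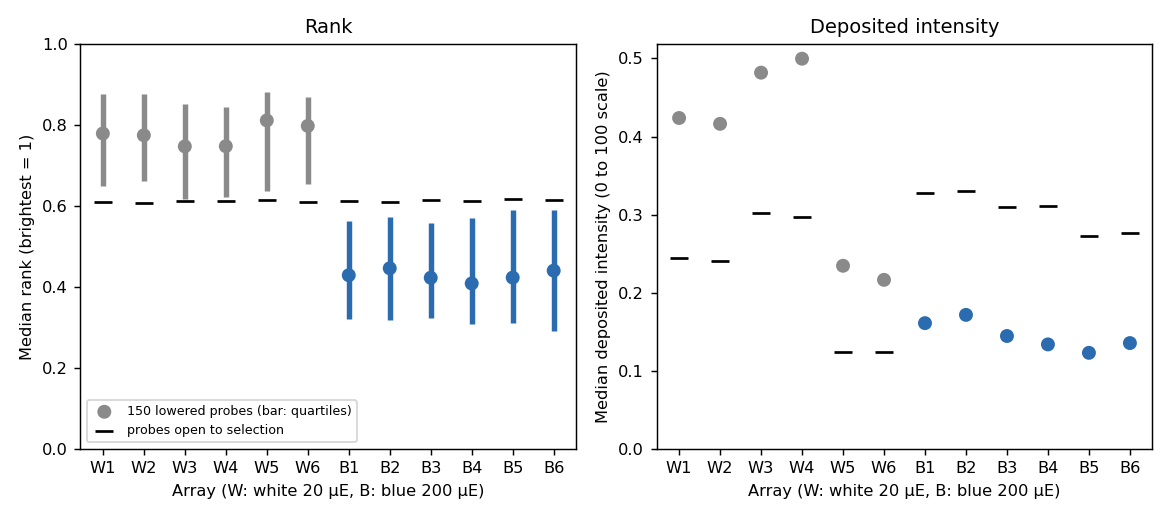
Left, median rank of the 150 members on each array (points, with bars from the first to the third quartile) and of the 2278 probes that could be selected (black dashes). Right, the same medians of deposited intensity. The members lie above the black dash on every white-light array and below it on every blue-light array, and both marks drop on white-light arrays 5 and 6 in the right panel.

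After quantile normalization of log2 intensities the typical member was 3.70-fold higher under white light. The median log2 fold change (blue minus white) was -1.89, with quartiles of -2.37 and -1.58, and single members ranged from -4.97 to -0.78. At least a 2-fold fall was found for 148 members, at least 4-fold for 66 and at least 8-fold for 11. The median over all 2776 tested probes was -0.09. By array number the members' median log2 difference was -1.99, -1.94, -1.72, -1.77, -1.99 and -1.96 for numbers 1 to 6, and the rule required a fall in rank in each of these pairs. On the deposited scale the members' median was -1.34, where the median of all tested probes was 0.45, so a fall is relative to the other probes on the array.

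All 150 members were called lower by limma's moderated test over the 12 arrays at an adjusted p of 0.05, where 25.7% of the 2776 tested probes were called lower and 45.3% were called in either direction. Arrays 1 and 2, 3 and 4, and 5 and 6 resembled each other, so the fit was repeated on the means of these 3 sets per group. There 136 of 150 members were called lower, beside 10.6% of all tested probes. The 14 members not called over set means had log2 fold changes of -1.89 to -0.78 over the 12 arrays. Without scaling between arrays 116 members were called lower, beside 11.5% of all tested probes. The rule used this same contrast, so nothing is read from these counts.

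**Figure D3:**
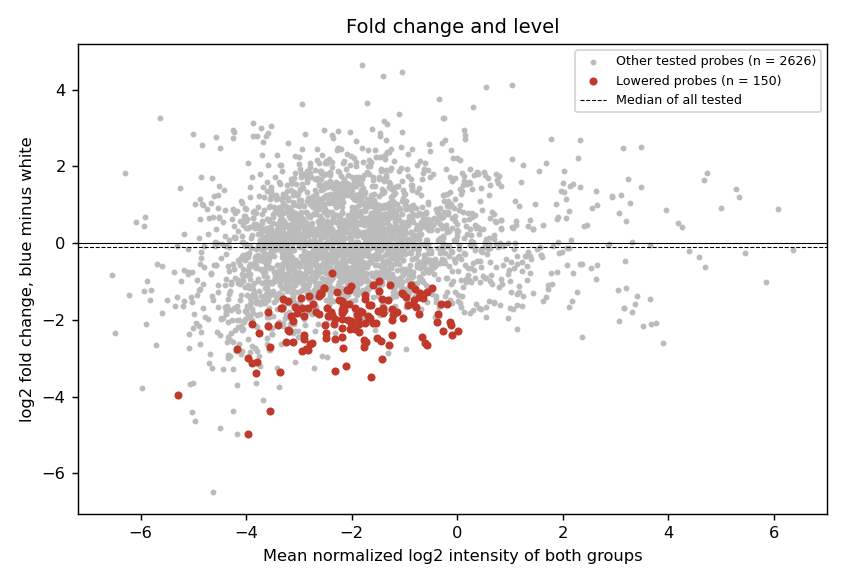
Log2 fold change (blue minus white, normalized scale) against mean normalized log2 intensity of both groups for 2776 tested probes, with the 150 members in red. The members occupy the lower edge at middle levels, while the brightest probes on the right hold none of them.

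The members are not simply the largest falls of the table. Of the 50 tested probes with the most negative fold changes, 14 were members. Another 563 probes were called lower without being members, with a median log2 fold change of -1.28. Of these, 431 could have been selected but had a smaller gap, 105 were at 0 on at least 1 array, and 27 were among the 100 brightest probes. The rule orders probes by the gap in rank and not by fold change, and leaves out probes at 0 on any array and the brightest ones. How many of the largest falls were missed for each of these reasons was not counted.

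The gap depends on the spread within a group. Under white light the members' ranks spanned a median of 0.155 over the 6 arrays, against 0.253 for the probes that could be selected. Under blue light the spans were 0.116 and 0.121. The SD of log2 intensity, centred per array, had a median of 0.378 for members and 0.571 for the probes that could be selected under white light, and of 0.389 and 0.367 under blue light, where the members' value was the larger. The lowest white-light rank of a member fell on array 3 or 4 for 30 and 35 members, on array 1 or 2 for 20 and 16, and on array 5 or 6 for 24 and 25. The highest blue-light rank fell on array 5 or 6 for 35 and 36 members and on array 4 for 11. Over all 2278 probes that could be selected, the white-light counts in the same order were 327, 367, 349, 332, 441 and 462. White-light arrays 5 and 6 were thus lowest most often over these probes, which was not so for the members. The blue-light counts of the 2278 probes were 575, 545 and 200, so the uneven blue-light counts are not particular to the members. No single array thus set the gap of most members.

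The rule was also applied, filters included, to 4 arrays of each group, and the probes it took were read on the remaining pair. When the arrays 1 and 2 were held out, it selected 150 probes of which 126 were members, and 147 of the 150 were lower under blue light in the held-out arrays by mean rank (98%, beside 49.6% of the 2318 probes that could be selected on the arrays used). With arrays 3 and 4 held out, 101 were members and 147 were lower (98%, beside 49.96% of 2406). With arrays 5 and 6 held out, 98 were members and 138 were lower (92%, beside 49.5% of 2455). The median rank difference in the held-out arrays was 0.269, 0.246 and 0.264 in the same order. Held-out arrays share plants' treatment and the array design with those used, and are not a separate experiment. Most of the probes taken in each case were members (126, 101 and 98 of 150), but the rest were not. The members themselves were chosen with the held-out arrays included. These counts therefore describe the rule rather than the list of 150.

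The first member was probe 1262, which has no annotated gene. Its deposited intensity had a lowest value of 0.246, a median of 0.564 and a highest value of 0.807 under white light, and 0.0147, 0.0838 and 0.122 under blue light. The groups did not overlap on either scale, and its log2 fold change was -3.33 ± 0.37 (SE, limma fit over 12 arrays, as for all SEs below). Probe 4363, annotated with 2 genes, came next, with 0.223, 0.525 and 0.659 under white light and 0.0584, 0.0997 and 0.113 under blue light (log2 fold change -2.74 ± 0.21). The largest fall belonged to probe 4196, annotated with 4 genes, which read 0.221 to 0.354 on white-light arrays and 0.00383 to 0.0222 on blue-light arrays. This is a log2 fold change of -4.97 ± 0.48, whose size rests on blue-light values near 0.

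The brightest member under white light, probe 3776, read a lowest intensity of 0.860, a median of 1.73 and a highest of 2.41 there, and 0.476, 0.553 and 0.757 under blue light. The dimmest, probe 3272, read 0.0450 to 0.135 and 0.000637 to 0.0237. The smallest fall was that of probe 4055, with 0.112, 0.242 and 0.315 under white light and 0.125, 0.178 and 0.201 under blue light. Its groups overlapped on the deposited scale, and its log2 fold change was -0.78 ± 0.18. None of these 3 probes has an annotated gene.

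At the limit of the list the values were continuous. The last members inside, AT3G47100 and AT2G03200, had gaps of 0.0651 and 0.0648 and log2 fold changes of -2.12 and -1.90. The first probes outside, 1073 and 2685, had gaps of 0.0648 and 0.0646 and log2 fold changes of -2.07 and -1.70. AT2G03200 and probe 1073 were tied, and the lower probe number decided.

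The 27 single-gene members had a median log2 fold change of -1.91 (range -4.36 to -1.18), against -2.08 for members with several genes and -1.81 for members with none. On the deposited scale 7 of the 27 did not overlap between the groups, beside 62 of all 150 members and 4.48% of the probes that could be selected. RefSeq lists most of these genes by locus alone, and the roles given in the next paragraphs are general background, not results. The grouping by role was made after the values were seen.

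Chloroplast proteins were represented by a protein translocase subunit, a redox enzyme and a lumenal protein. SECE1, a subunit of the translocase that moves proteins into and across the thylakoid membrane, had a lowest deposited intensity of 0.277, a median of 0.827 and a highest of 1.08 under white light, and 0.196, 0.221 and 0.242 under blue light. Its groups did not overlap on the deposited scale, and the log2 fold change was -2.39 ± 0.26. AT5G58330 encodes the NADP-dependent malate dehydrogenase, which exports surplus reducing power from the chloroplast as malate. It read 0.230, 0.461 and 0.567 under white light and 0.0531, 0.233 and 0.263 under blue light. White-light array 6 lay within the range of the blue-light arrays before scaling, and blue-light arrays 5 and 6 were the lowest of the 12 at 0.0531 and 0.0754. The log2 fold change was -1.97 ± 0.35. AT4G24930, a protein of the thylakoid lumen, had the smallest fall of the 27, -1.18 ± 0.19. It read 0.298, 0.790 and 0.967 under white light and 0.355, 0.572 and 0.606 under blue light, and white-light arrays 5 and 6 lay below every blue-light array before scaling. On the deposited scale its log2 fold change was -0.30.

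Several members belong to families that act on RNA or on gene expression in organelles. AT3G13180, of the NOL1/NOP2/Sun family of RNA methyltransferases, read a lowest intensity of 0.0966, a median of 0.408 and a highest of 0.574 under white light and 0.0502, 0.0960 and 0.114 under blue light (log2 fold change -2.48 ± 0.30). Only white-light array 5 reached the blue-light range. AT1G62010, of the family of mitochondrial transcription termination factors, which act in mitochondria and chloroplasts, read 0.333, 1.01 and 1.48 under white light and 0.314, 0.404 and 0.543 under blue light (-1.85 ± 0.30). AT5G15390, of the SpoU family of RNA methyltransferases, read 0.118, 0.218 and 0.390 and then 0.0590, 0.150 and 0.182 (-1.29 ± 0.25). It was the single-gene member not called over set means. AT3G25840, a protein kinase of the PRP4 type linked to splicing, read 0.151, 0.476 and 0.774 under white light and 0.0723, 0.131 and 0.179 under blue light (-2.24 ± 0.31).

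Genes of metabolism and membranes included the single-gene member with the largest gap. AT1G10310 encodes a pterin aldehyde reductase that serves the salvage of folate precursors. It had a lowest intensity of 0.373, a median of 0.751 and a highest of 1.13 under white light, and 0.0889, 0.152 and 0.249 under blue light, with no overlap before scaling (log2 fold change -3.02 ± 0.26). AT4G26770, a CDP-diacylglycerol synthase of phospholipid synthesis, read 0.212, 0.448 and 0.752 under white light and 0.0901, 0.124 and 0.264 under blue light (-2.16 ± 0.32). AT1G25500, of the choline transporter-like family, read 0.199, 0.682 and 1.14 and then 0.262, 0.286 and 0.332 (-1.70 ± 0.32). White-light arrays 5 and 6 lay below every blue-light array for this gene before scaling. AT4G22490, of the lipid transfer protein family, read 0.240, 0.754 and 0.886 under white light and 0.349, 0.395 and 0.423 under blue light (-1.32 ± 0.19).

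One transcription factor was among the single-gene members with a role given here. AT1G01250, of the AP2/ERF family, read a lowest intensity of 0.295, a median of 0.994 and a highest of 1.08 under white light and 0.362, 0.460 and 0.640 under blue light (log2 fold change -1.39 ± 0.24). White-light arrays 5 and 6 lay below every blue-light array before scaling.

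Among loci named without a role, AT1G70350 had the largest fall of the 27. It read a lowest intensity of 0.197, a median of 0.271 and a highest of 0.508 under white light and 0.00806, 0.0189 and 0.0507 under blue light, with no overlap before scaling (log2 fold change -4.36 ± 0.48). AT1G63720 read 0.300, 0.698 and 0.758 and then 0.0829, 0.132 and 0.165, also without overlap (-2.69 ± 0.24). AT2G25640 had the highest white-light value of the 27, 3.18 on array 4, and read a median of 1.55 under white light and 0.320 under blue light (-2.60 ± 0.36). White-light array 6, at 0.237, lay below its lowest blue-light value of 0.248. These loci were singled out after their values were seen. The other 10 single-gene members had log2 fold changes from -2.75 (AT5G33390) to -1.37 (AT4G30740). Between these ends lay AT1G53260, AT3G09490, AT5G52960, AT3G20490, AT1G50020, AT4G23110, AT1G22040 and AT1G34270. Of the 10, 3 did not overlap before scaling (AT5G33390, AT1G53260 and AT3G09490), beside 4.48% of the probes that could be selected.

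**Figure D4:**
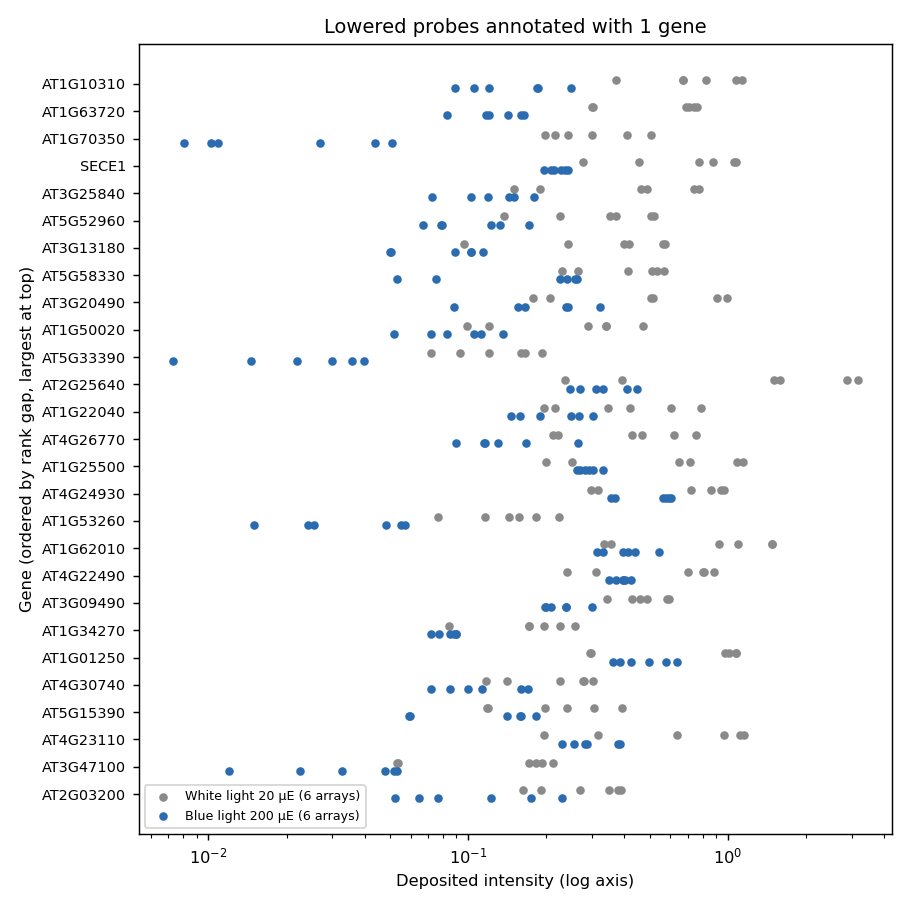
Deposited intensity (log axis) of the 27 members annotated with 1 gene on the 6 white-light arrays (grey) and the 6 blue-light arrays (blue), ordered by gap. For 7 of the 27 no grey point reaches the blue ones, and for the others the leftmost grey points overlap them.

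Some members share their annotated genes with other probes. Of the 43 members with several genes, 11 belonged to 10 gene sets that were annotated identically on more than 1 probe. In 1 set both probes were members: probes 628 and 1204 fell by 1.59 and 1.56 on the log2 scale. The other 9 sets held 10 probes that were not members, of which 9 could be tested, and 1 was at 0 on all arrays. Not all partners were open to the rule, which leaves out probes at 0 on any array and the brightest probes. Probe 3502 was at 0 on all arrays, and probe 313 was at 0 on at least 1 blue-light array. Probe 1246 lay among the brightest probes, with mean ranks of 0.985 under white light and 0.982 under blue light. Any other partner with a large steady fall would be a member. The partners' values are therefore a description of probes that were not selected. None of the 9 passed limma's adjusted p of 0.05 over 12 arrays or over set means, and at an unadjusted limma p of 0.05 the counts were 2 and 0. The adjusted count of 0 over 12 arrays held in 11 of 27 alternatives, and in the other 16 at least 1 partner was called, with up to 2 higher and up to 3 lower. The 9 partners' log2 fold changes over 12 arrays had a median of 0.09, and 3 were negative and 6 positive. The annotation does not say which of its genes a probe binds best, so probes of a set may read different genes.

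Probe 1172 fell by 1.60 on the log2 scale, while probes 1575 and 4221 of the same gene set had log2 fold changes of 0.84 ± 0.34 and 1.02 ± 0.43 (limma adjusted p = 0.0595 and 0.0660). These calls were near the threshold: with the array number as a block probe 4221 was called higher (limma adjusted p = 0.00294), and without scaling probe 1575 was (limma adjusted p = 0.0364). Probe 1045 fell by 2.16, and probe 2612 of its set had 0.44 ± 0.25 (limma adjusted p = 0.160, and 0.000593 without scaling). Probe 3260 fell by 1.67, and its bright partner 1246, which read a median of 10.6 under white light and 6.98 under blue light, had -0.56 ± 0.39 (limma adjusted p = 0.269). The difference between a member and its partner was not tested, since the member's value was part of the choice.

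The partners' calls also changed with the arrays included. Without white-light arrays 5 and 6, 3 of the 9 partners were called lower and 1 was called higher. The log2 value for probe 1246 was then -1.20 (limma adjusted p = 6.54e-05), probe 1313 had -1.59 (limma adjusted p = 0.000434) and probe 1820 had -0.52 (limma adjusted p = 0.0404), while probe 2612 had 0.74 (limma adjusted p = 0.00876). With all arrays these were -0.56, -0.83, 0.09 and 0.44.

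**Figure D5:**
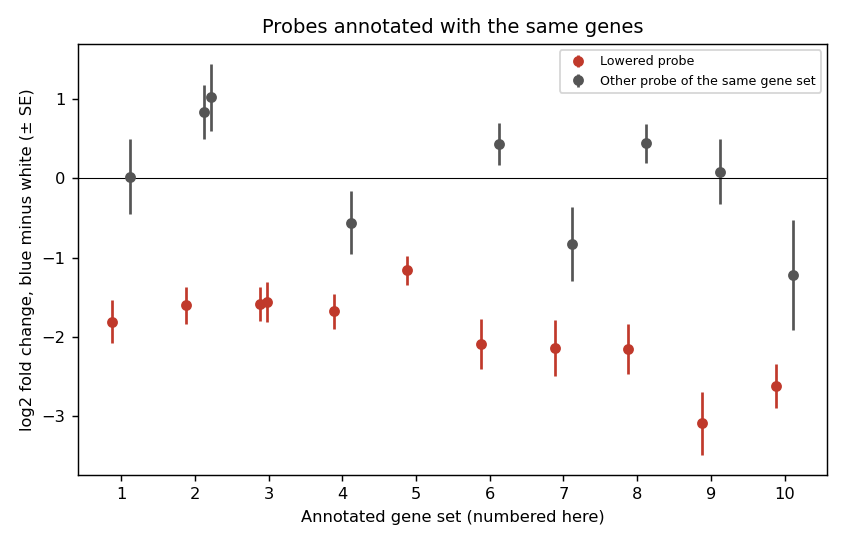
Log2 fold change (blue minus white, ± SE over 12 arrays) of members (red) and of other probes annotated with the same genes (grey), for 10 gene sets. All red points lie between -3.09 and -1.16, and the grey points lie between -1.22 and 1.02.

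Genes of photosynthesis and light acclimation listed by symbol for this comparison were nearly absent from the single-gene probes. Of 13 lists (among them light harvesting, photosystem subunits, chlorophyll synthesis, photoprotection and photoreceptors), 5 had a probe, 11 probes in all. None of the 11 was a member. Among them LHB1B2, PSBW, SBPASE and Cpn60beta4 could not be selected. Only 6.58% of the probes that could be selected were members, so nothing is read from this absence. By limma over 12 arrays 2 were lower, 2 were higher, 5 were not called and 2 were not tested. Of all tested probes 25.7% were called lower and 45.3% were called in either direction. LHB1B2, a light-harvesting protein of photosystem II, read a median deposited intensity of 20.0 under white light and 7.03 under blue light. Its log2 fold change was -1.68 ± 0.34 (adjusted p = 0.00153 by limma, 0.0459 over set means and 0.197 without scaling), and it could not be selected because it was among the 100 brightest. PSAN, a photosystem I subunit, had -1.10 ± 0.35 (limma adjusted p = 0.0213), was not called over set means (limma adjusted p = 0.156), and had a deposited-scale log2 fold change of -0.08. PSBW, a photosystem II subunit, rose by 1.66 (limma adjusted p = 4.04e-05 over 12 arrays and 0.0175 over set means). HEMA3, of the first step of tetrapyrrole synthesis, rose by 1.60 (limma adjusted p = 0.000402 over 12 arrays and 0.0319 over set means).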

How the data were processed

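The authors' deposited table holds 1 intensity per probe and array, linear, never below 0 and ending at 100; how arrays were labelled, background-corrected and scaled is not stated in the labels. Deposited values of 0 were treated as missing, the rest taken to log2 without a pseudocount and brought to common quantiles (R 4.3.3, limma 3.58.1). Probes above 0 on at least 4 of 6 arrays of each group were tested (2776) with lmFit and eBayes over 12 arrays, two-sided, Benjamini-Hochberg adjusted over all of them. The fit was also run on simulated data with independent arrays. Those data lack the likeness between arrays of a set, so they do not test the p-values over 12 arrays. Ranks, tables and figures used Python 3.11.15 and matplotlib 3.10.9.

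The platform annotation named 1 gene for 692 probes, several for 870 and none here for 1877; 690 of the 692 matched RefSeq (TAIR10.1 annotation) by gene ID. Probe sequences were not used here.

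Members, lists and tests were chosen with earlier results of these data known. Probes named include those with the largest gaps, extremes of level and fall, and those at the limit of the list. The 27 single-gene members and some partner probes are named as well. List genes are named if called, if the rule could not select them, or if their sign changed in an alternative (PRK, PSB27 and CHLM).

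Same-numbered arrays of the 2 groups deviated together from their group means (correlation 0.198 to 0.381 over 2378 probes for all 6 numbers), so the numbers were taken as pairs in an alternative fit; the labels state no pairing. The number of arrays limits the precision.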

Additional observations from a re-analysis of the deposited data

Results flagged for a closer look

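Normalized log2 values of the named and single-gene members, and the members' median rank, were examined in 68 groups of 6 arrays for an array far from the others, and 5 were found; chance gives about 1 in 20 groups. Probe 1262 read -5.83 on blue-light array 5, against -4.04 on the nearest array. Probe 4055 read -3.25 on blue-light array 2, with the nearest at -2.80. AT1G10310 read 0.81 on white-light array 6, with the nearest at 0.12. AT3G13180 read -2.42 on white-light array 5, with the nearest at -1.11. AT4G22490 read -1.43 on blue-light array 6, with the nearest at -1.68.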

How the results depend on the processing

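Every member tested kept a negative fold change in all 27 alternatives of the fit, a direction that the choice of members nearly fixes. Leaving out each array gave 150 to 150 members called lower, beside 22.7% to 26.4% of all tested probes. The members' median log2 fold change was then -1.96 to -1.85, and 132 to 148 members were selected again. The replicate block gave 150 called, beside 28.3% of all tested probes. The members were chosen on this same contrast, so nothing is read from these counts. The members' median was -1.34 without scaling and -1.46 with a pseudocount of 0.0463. By difference of mean ranks 99 members were selected again, and without arrays 5 and 6 of both groups 98. The share of all tested probes called lower, 25.7%, was 11.5% without scaling, 10.6% over set means, 14.5% over set means with the replicate block and 16.9% at a threshold of 0.01. Probe 4055 was not called without scaling (limma adjusted p = 0.442), over set means (0.125, or 0.123 with the block) or without arrays 1 and 2 of both groups (0.0641). As a member it was chosen on this same contrast, so these values are a description and not a test. Partner probe 1246 had 0.25 without scaling. Partner probe 1820 turned to -0.58 without arrays 5 and 6 of both groups, to -0.52 without white-light arrays 5 and 6 (chosen after seeing the data), and ran from -0.31 to 0.27 when each array was left out. Partner probe 1549, 0.02 over 12 arrays, had -0.034 with median centring, -0.013 with cyclic loess, -0.47 without arrays 5 and 6 of both groups, -0.73 without white-light arrays 5 and 6, and -0.29 to 0.25 leaving out each array. Among list genes not called over 12 arrays, PRK had -0.066 with cyclic loess, -0.066 without arrays 1 and 2, -0.24 without arrays 3 and 4, and -0.048 to 0.18 leaving out each array. PSB27 had -0.0020 without white-light arrays 5 and 6, and CHLM had 0.26 without scaling. CHLM was called lower in 3 alternatives (-0.72 to -0.52). PRK was called higher in 1 alternative (0.88), and PSBY, a photosystem subunit, was called higher in 7 (0.42 to 1.45). The cause was not tested. Signals near 0 limit the size of the largest falls.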

Other observations

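Members were not spread evenly along the probe numbers, which the rule used only to break ties. Of the probes that could be selected, 8.01% with numbers above 2304 were members (94 of 1173) and 5.07% of those below (56 of 1105), around an overall share of 6.58%. Over 12 blocks of 384 numbers the share ran from 2.90% (6 of 207, numbers 1153 to 1536) to 9.18% (18 of 196, numbers 3841 to 4224). By the remainder after division by 6, it was 9.29% for remainder 2 (46 of 495) and 5.32% to 6.13% for remainders 1, 3, 4 and 5, with 4 of 17 for remainder 0. What the numbers stand for is not stated in the labels, and their part in the result was not tested.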
